A study of Mus musculus with 2 samples.

Results

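Fibroblasts were chosen by 3 matrix genes from dorsal root ganglion (DRG) cells that had been dissociated, cultured for 3 days and sequenced one by one, and they made up 390 of the 10730 cells kept. A cell was kept when at least 200 genes were detected and at most 10% of its unique molecular identifiers (UMIs, one per captured transcript) came from the 13 mitochondrial genes. It was counted as a fibroblast when Dcn, Lum and Mgp together reached 20 of every 10,000 of its UMIs, while 5 neuron genes (Tubb3, Snap25, Uchl1, Prph and Stmn2) stayed under 20 and 3 macrophage genes (Lyz2, C1qa and C1qb) under 30. The members were thus chosen by measured levels of these 11 genes. Because these values chose the cells, Dcn, Lum and Mgp are described here and were not tested, and a comparison of the fibroblasts with other cells is a description for every gene. The ganglia were taken from Swiss mice 2 weeks of age, male and female, at cervical, thoracic and lumbar levels. Both libraries, A and B, hold cells of the same single condition, with no genotype or treatment named, freed with collagenase IV and dispase, cleaned on an OptiPrep gradient, grown on laminin in medium with horse serum and detached with trypsin. The study calls the libraries replicates and ran them on a shared Chromium chip, but does not state whether they are separate animals or cultures. Every SD, SE and p-value below bears on these 2 libraries only, and their differences may be technical. There was no uncultured ganglion and no second condition in the data used here.

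Fibroblasts of peripheral nerves and ganglia lie in the connective tissue around axons, neuron bodies and vessels, where endoneurial, perineurial and epineurial cells form separate layers. They secrete fibrillar collagens, which are trimmed, hydroxylated and crosslinked outside or on the way out of the cell, and small leucine-rich proteoglycans that bind the fibrils. They also release proteases that cut this matrix, chemokines that attract leukocytes, and growth factors. Under tension and TGF-beta, fibroblasts of many organs take up smooth muscle actin, encoded by Acta2, and are then called myofibroblasts, but pericytes and smooth muscle cells carry the same actin.

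In library A 170 of 5066 cells were fibroblasts, a share of 3.36% (exact 95% binomial interval 2.88% to 3.89%), and in library B 220 of 5664, a share of 3.88% (3.40% to 4.42%). The mean share was 3.62% ± 0.374 (SD, n = 2 libraries). These intervals cover counting error only. Of the other cells, 816 passed the neuron-gene limit and are called neuron-gene cells, 86 passed the macrophage-gene limit and are called macrophage-gene cells, and the remaining 9438 were mostly glia, since 97.8% of them held at least 20 of every 10,000 UMIs from 8 glia markers. Fibroblasts were well covered, with a median of 12169 UMIs per cell in A and 11041 in B, against 4726 in the remaining cells and 28275 in the neuron-gene cells. The libraries shared 8 cell barcodes, of which 1 was borne by a fibroblast. The summed fibroblast counts of A and B gave a chi-square per degree of freedom of 1.83 over 9976 genes. It treats UMIs as independent although they were drawn from cells with unlike levels, so it cannot show whether A and B are separate samples. The libraries were still counted as 2 samples.

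The label of fibroblast was checked on genes outside the rule. Of 12 fibroblast markers 3 (Dcn, Lum and Mgp) chose the cells, and of the other 9, 6 were at least 2-fold higher in the fibroblasts than in all other cells in both libraries, with Clec3b at 0. Pdgfra or Pdgfrb, the receptors for platelet-derived growth factors that mark mesenchymal cells, gave a UMI in 333 of the 390 (85.4%). Pdgfra alone was found in 60.1% of fibroblasts and 0.125% of the remaining cells. After each cell was thinned to 2000 UMIs these shares were 20.3% and 0.0331%. The rule let in cells on Mgp alone: 25 cells (6.41%) had no UMI of Dcn or Lum, and 138 (35.4%) had none of Lum. Glia markers reached 20 of every 10,000 UMIs in 32 members (8.21%, 11 in A and 21 in B), which had a median of 6943 UMIs and 5.53% mitochondrial UMIs, against 11421.5 and 3.72% over all fibroblasts, and 11 of them had no UMI of Dcn or Lum. Over all fibroblasts the 8 glia markers summed to 436 UMIs per 1000000 UMIs of the summed cells (CPM) in A and 515 in B, against 5598 and 5525 in the remaining cells, and none was at 0. The 8 macrophage markers summed to 4.80 and 4.15 CPM and the 10 neuron markers to 141 and 144 CPM, but the rule capped 3 and 5 of these genes. The 5 macrophage markers outside the rule summed to 2.88 and 2.08 CPM, against 3627 and 3921 in macrophage-gene cells, with C1qc, Adgre1 and Ptprc at 0. The 5 neuron markers outside it summed to 47.0 and 53.1 CPM, against 9845 and 9230 in neuron-gene cells. The part of mixed droplets or free RNA in these values was not tested, and no doublet caller was run. At the edge of the rule, 14 members lay between 20 and 25, the lowest at 20.1, 9 cells just outside lay between 15 and 20, the highest at 19.9, and 7 cells with enough matrix UMIs were removed by the neuron or macrophage limit. Leaving out the 41 members with glia markers at 20 or Acta2 at 10 left 349 cells, in which Dcn stood at 4822 and 5549 CPM against 4676 and 5318 in all members.

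Several of the genes that stood highest over the other cells encode secreted proteins. UMIs were summed over the fibroblasts of each library and divided by their total, and 10 CPM was added to both sides of each fold so that it did not rest on a few UMIs. On this scale 513 of 9745 genes (5.26%) were at least 2-fold higher in fibroblasts in both libraries and 1249 (12.8%) at least 2-fold lower. Only genes with a mean of at least 10 CPM in fibroblasts or in other cells could be called. List counts against other cells are out of all members present, including those under this level. Mgp, the matrix Gla protein that inhibits calcification, was 381-fold higher, at 15348 CPM in A and 11626 in B against 26.4 and 23.8 in other cells. Dcn, decorin, a proteoglycan on collagen fibrils, was 221-fold higher (4676 and 5318 CPM against 11.6 and 13.7), and Lum, lumican, of the same family, 75.2-fold (848 and 1060 CPM). Spp1, osteopontin, a secreted ligand of integrins and CD44, was 112-fold higher, at 23196 and 19470 CPM against 155 and 207. The other cells with much Spp1 were the macrophage-gene cells (9195 and 12655 CPM), while the remaining cells stood at 53.0 and 30.6 CPM, so Spp1 marked both fibroblasts and macrophage-gene cells. Apod, apolipoprotein D, a carrier of lipids, was 34.2-fold higher (11703 and 14150 CPM against 323 and 416), and the remaining cells also held it, at 455 and 546 CPM.

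**Figure D1:**
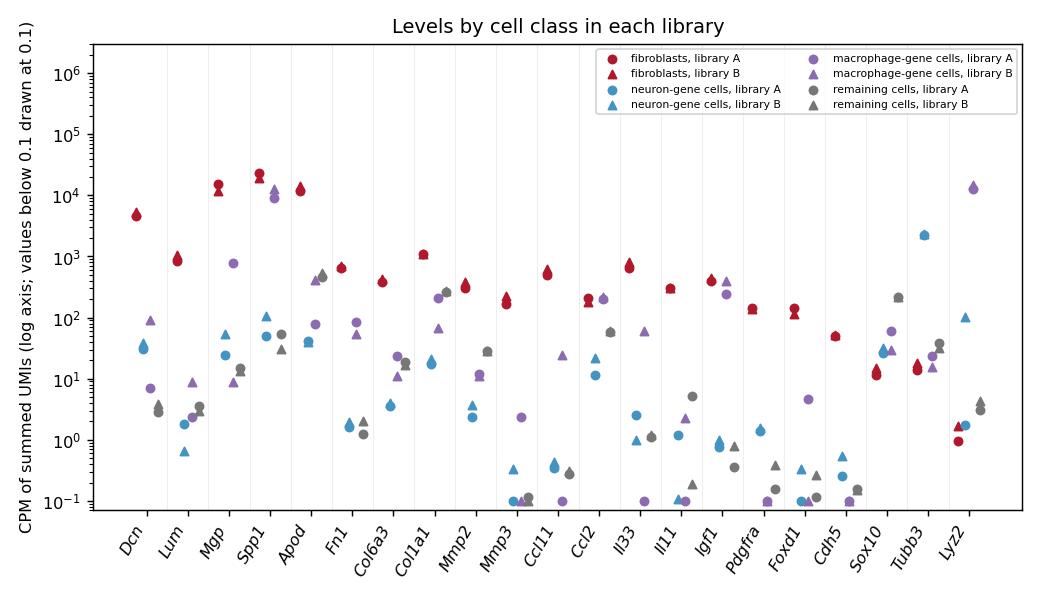
Level of single genes in CPM of summed UMIs (log axis, values under 0.1 drawn at 0.1) in fibroblasts, neuron-gene, macrophage-gene and remaining cells, with 1 point per library A and B. Spp1 is high in fibroblasts (23196 and 19470 CPM) and in macrophage-gene cells, whereas Il33 and Ccl11 stand at 504 CPM or more in the fibroblasts of both libraries and at 2 CPM or less in the remaining cells.

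The rest of the 20 genes with the largest folds fell into several roles. Their folds depended on the CPM added: with 50 CPM in place of 10, 18 of the 20 moved by more than 0.5 on the log2 scale, with Il33 at 15.01-fold, Ccl11 at 12.2-fold and Il11 at 6.85-fold. Il33, an alarmin cytokine of the nucleus, was 62.9-fold higher, Ccl11, eotaxin, a chemokine for eosinophils, 55.0-fold, and Fn1, fibronectin, 54.4-fold. Plasma and iron-handling proteins formed part of the set: Lbp, the lipopolysaccharide-binding protein, was 42.7-fold higher, Trf, transferrin, 28.9-fold, and Cp, the ferroxidase ceruloplasmin, 25.6-fold. Carriers of insulin-like growth factors and their ligand were also there, with Igfbp6 at 30.4-fold, Igf1 at 30.003-fold and Igfbp7 at 22.3-fold. Igf1 was also high in macrophage-gene cells, which held 242 and 397 CPM against 402 and 445 in fibroblasts. The others were Mfap5, a microfibril protein (28.2-fold), the cytokine Il11 (26.5-fold), the stress-response gene Nupr1 (23.3-fold), Tgfbi, a matrix protein induced by TGF-beta (22.5-fold), the cysteine protease inhibitor Cst6 (21.3-fold) and Medag (21.0-fold).

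Collagen genes were not all fibroblast genes in this culture. Of 8 fibrillar collagen genes, 4 were at least 2-fold higher in fibroblasts and none was lower. Col1a1 stood at 1116 and 1102 CPM against 184 and 204 in all other cells, and Col3a1 at 1978 and 1951 against 458 and 488. Col1a2, the partner chain of Col1a1 in type I collagen, did not reach 2-fold (1580 and 1623 CPM against 800 and 866), since the remaining cells alone held 1128 and 1139 CPM. The collagen VI chains, which form beaded filaments around cells, separated the classes more: Col6a3 was 17.4-fold, Col6a2 11.7-fold and Col6a1 10.2-fold higher. Col4a1, a basement membrane collagen, was 3.22-fold higher (2030 and 2016 CPM against 609 and 636), and in all 7 of 12 other collagen genes were higher and 2 lower. Among 10 small leucine-rich proteoglycans 5 were higher and none lower. Of these Dcn and Lum had chosen the cells, and the others were Bgn (7.73-fold), Aspn (7.82-fold) and Prelp.

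Basement membrane glycoproteins were the matrix group that did not follow. Of 10 laminin, nidogen and related genes, none was 2-fold higher in fibroblasts and 2, Lama4 and Agrn, were lower, with Lama4 at 96.0 and 117 CPM against 294 and 309. Among 16 other glycoproteins and matricellular proteins, 8 were higher and 2 lower. Mgp, 1 of the 8, had chosen the cells. Vcan, the large proteoglycan versican, was 15.2-fold and Thbs1, thrombospondin 1, 9.18-fold higher. Postn, periostin, often listed with activated fibroblasts, was 9.20-fold lower, at 78.2 and 75.5 CPM against 771 and 808, and its level in the remaining, mostly glial cells was 1098 and 1069 CPM. Sparc was close to even (2396 and 2465 CPM against 2615 and 2775). Elastic and microfibril genes were higher in 5 of 14 and lower in 1, with Fbn1 at 286 and 281 CPM against 27.5 in both libraries of other cells.

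Of 17 collagen processing genes, 10 were higher and 1, Pcolce2, lower, among them Lox, the lysyl oxidase that crosslinks collagen and elastin (62.9 and 66.4 CPM against 0.480 and 0.362), Pcolce, an enhancer of procollagen cleavage (7.37-fold), and the collagen chaperone Serpinh1 (2.69-fold). Of 17 matrix proteases and inhibitors, 10 were higher and 1, Adamts5, lower. The gelatinase Mmp2 was 11.4-fold higher (303 and 379 CPM), the membrane protease Mmp14, which activates it, 2.53-fold, and their inhibitor Timp1 6.13-fold (1684 and 1112 CPM). Stromelysin 1, Mmp3, was 20.3-fold higher at 166 and 229 CPM, and the collagenase Mmp13 stood at 11.04 and 29.5 CPM with no UMI in any other cell. Both came from few cells, as described below.

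Of 16 interleukins and other cytokines, Il11, Il33 and Spp1 were higher and none lower. Il33 stood at 641 and 822 CPM against 1.55 and 1.87, and Il11, a cytokine of the interleukin-6 family, at 310 and 303 CPM against 3.95 and 0.195. The Il11 value of the other cells in A came almost from a single cell, which held 124 of the 155 UMIs found in the 10340 other cells and had a matrix sum of 14.9, under the limit of the rule. Il6 was near the limit of detection (2.88 and 4.15 CPM), and Il1a, Il1b, Tnf and Csf2 had no UMI in the fibroblasts. Of 15 chemokines, 5 were higher and Cxcl10 was lower. Ccl11 stood at 504 and 635 CPM against 0.293 and 0.641. The monocyte chemokine Ccl2 was 3.49-fold higher (212 and 182 CPM), but its level in macrophage-gene cells was about as high (199 and 214 CPM), and Ccl7 stood at 68.6 and 70.6 CPM against 73.4 and 190 in macrophage-gene cells. Of 14 cytokine receptors, Osmr, Il13ra1 and Tnfrsf1a were higher and Lifr lower. Of 10 complement genes 3 were higher, among them Serping1, which restrains complement, and Cd55 was lower.

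The share of cells with a UMI of these cytokines differed between the classes at equal depth. After each cell was thinned to 2000 UMIs, which left out 6 fibroblasts, 47 neuron-gene, 4 macrophage-gene and 172 remaining cells, Ccl11 was found in 41.3% of fibroblasts, in no neuron-gene cell and in 0.0331% of the remaining cells. Il33 was found in 40.8%, 0.262% and 0.159% of the same classes, and Il11 in 10.9%, none and 0.0433%. Without thinning, Ccl11 was found in 62.0% of fibroblasts and 0.871% of neuron-gene cells, whose median depth was 28275 UMIs. Igf1 was found in 43.4% of thinned fibroblasts and 42.5% of thinned macrophage-gene cells.

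Of 25 growth factors, 7 were higher and 4 lower. Fgf7, a growth factor for epithelia, stood at 56.6 and 41.9 CPM against 1.36 and 1.06, and Tgfb1 at 197 and 181 against 36.7 and 37.5. Ptn, pleiotrophin, was 10.2-fold lower (77.3 and 65.2 CPM against 802 and 822), and Nrg1, Artn and Pdgfa were the other lower ones. Among receptors Pdgfra (141 and 136 CPM against 0.534 and 0.669), Pdgfrb and Egfr were higher and Met and Ngfr lower of 15. Of 6 IGF-binding proteins 4 were higher and none lower.

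Of 24 transcription factors of mesenchyme, 13 were higher and 1, Zeb2, lower. Foxd1 was 13.5-fold higher (145 and 112 CPM against 0.160 and 0.279), Prrx1 9.80-fold and Twist1 9.02-fold. Markers of the nerve's layers did not point to 1 layer. Higher were 6 of 8 endoneurial markers, 5 of 8 meningeal, 2 of 8 epineurial and adventitial and 1 of 8 perineurial. Lower were 4 perineurial and 1 epineurial marker. Of these lists 8, 6, 3 and 7 genes, in that order, reached 10 CPM and could be called. The endoneurial members that were higher included Osr2, Sox9, Wif1 and Abca9, and the meningeal ones Foxc1, Foxd1 and Aldh1a2. These lists rest on few genes and the cells had been in culture, so no layer was assigned.

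An endothelial gene was also higher. Cdh5, VE-cadherin, the adhesion molecule of endothelial junctions, was found at 49.4 and 52.3 CPM in fibroblasts against 0.187 and 0.251 in other cells, with a UMI in 126 of 390 (32.3%) against 6 of 9438 remaining cells (0.0636%). After thinning it was found in 8.86% of fibroblasts, in 0.0331% of the remaining cells and in no neuron-gene cell. Of the 126 fibroblasts with Cdh5, 4 also held a UMI of Pecam1, Cldn5, Kdr or Tie1. Of 8 endothelial markers only 3 reached 10 CPM in fibroblasts or other cells and could be called, and of these Cdh5 and Emcn were higher. In the 349 cells without high glia markers or Acta2, Cdh5 stood at 49.5 and 56.6 CPM.

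A pair of cell cycle brakes was higher and mitosis genes were lower. Cdkn2a and Cdkn2b, neighbouring genes that encode inhibitors of cyclin-dependent kinases, were 13.8-fold and 12.7-fold higher, at 157 and 205 CPM and at 166 and 209 CPM, while Cdkn2c, Pik3ip1 and Rb1 were lower among the 12 brakes. All 12 mitosis genes of the list used below were at least 2-fold lower in fibroblasts, with Top2a at 119 and 54.8 CPM against 498 and 524. Another 14 of 20 mitosis genes and 5 of 18 DNA replication genes were lower and none was higher. Among 12 immediate early genes 4, Fos, Fosb, Jun and Atf3, were lower.

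**Figure D2:**
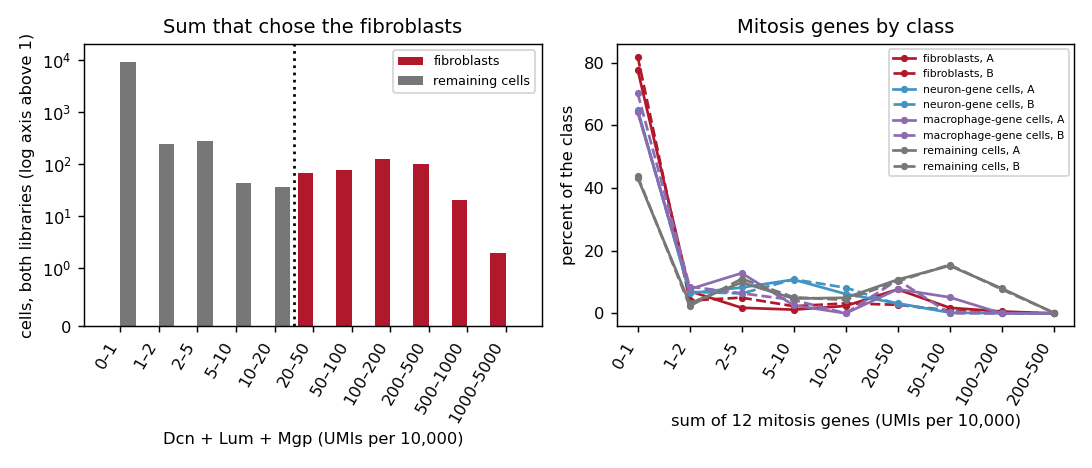
Left, number of cells of both libraries by the sum of Dcn, Lum and Mgp in UMIs per 10,000, with the limit of 20 dotted. Right, percent of each class by the sum of 12 mitosis genes, where fewer fibroblasts than remaining cells reach the higher bins.

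UMIs of some secreted regulators came from a small share of the fibroblasts. Dcn ranged from 0 to 133 UMIs per 10,000 over the 170 cells of A with a median of 43.0, and from 0 to 150 over the 220 cells of B with a median of 48.1. Spp1 ranged from 0 to 1380 (median 155) in A and from 0 to 831 (median 141) in B. Apod was split, with medians of 8.17 in A and 111 in B under like highest values of 523 and 529. Ccl11 had medians of 1.18 and 2.20, highest values of 35.8 and 43.2, and a UMI in 95 cells of A and 150 of B. At the other end, Il11 was found in 41 and 48 cells and the highest 10% of cells held 92.6% and 93.7% of its UMIs, and Mmp3 was found in 30 and 30 cells, with 94.2% and 98.4% in the highest 10%. For Col1a1 the highest 10% held 39.4% and 32.0%. The cells rich in Il11 were not those rich in Ccl11: of 22 cells with at least 10 Il11 UMIs per 10,000, none reached 10 for Ccl11, against 93 of the other 368, and 5 reached 10 for Mmp3, against 8 of 368.

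Within each library, Ccl11 went with Apod over cells (Pearson r of 0.77 in A and 0.76 in B), with Igf1 (0.75 and 0.68), Lum (0.74 and 0.69) and Il33 (0.61 and 0.55). It went against Mfap5 (−0.40 and −0.27). Mfap5 went with Cd248 (0.70 and 0.64) and Timp1 (0.62 and 0.44), Il11 with Ereg, a ligand of the EGF receptor (0.52 and 0.68), and Acta2 with Tagln (0.71 and 0.74). Dcn and Mgp, both used to choose the cells, had coefficients of −0.08 and −0.06. These coefficients describe the 170 and 220 cells of each library, which share a library and differ in depth, and they carry no test.

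To ask which genes go with the chemokine, the cells above the median of Ccl11 in their library were compared with the rest, 85 against 85 cells in A and 110 against 110 in B. UMIs were summed per library and group, and the 4 sums were fitted in edgeR with the library as a block. A gene is said to have risen or fallen in the upper Ccl11 group where its Benjamini-Hochberg adjusted p from edgeR's quasi-likelihood test over 8404 genes lay under 0.05, and Ccl11 and the genes of the rule were left out. There 800 genes rose (9.52%) and 670 fell (7.97%), 17.5% in either direction. DESeq2 called 114 and 89, all of them among the former. Median depth was 11826 UMIs in the upper and 11025 in the lower group. The p-values of edgeR rest on 4 sums and on a spread estimated jointly over genes. Each SE was derived from the same test, as the size of the log2 change over the square root of its F statistic. It is thus no separate measure of spread, and it can be narrower than the difference between A and B. The 2 sums of a library come from the same wells, so the test bears on these libraries only, and since cells were ordered by a gene of the same counts, it finds genes that vary with Ccl11 over cells.

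Apod, Trf, Il33 and Igf1 rose in the upper Ccl11 group. Apod stood at 20148 CPM in the upper and 2916 in the lower group of A, and at 23111 and 4367 in B. Both upper values lay far above both lower ones, and the rise was 2.71 ± 0.03 on the log2 scale (SE). Of the cells with at least 100 Apod UMIs per 10,000, 155 were in the upper and 31 in the lower group. Trf rose by 2.74 ± 0.07 (2056 against 276 CPM in A and 2525 against 478 in B), Il33 by 2.53 ± 0.08 (1071 against 193 and 1336 against 260) and Igf1 by 1.98 ± 0.10 (642 against 153 and 664 against 207). Cp, Lbp and Cst6 rose with them by 1.46, 1.27 and 2.12. The genes that rose most by the fixed rule were A2m, the broad protease inhibitor alpha-2-macroglobulin (3.68 ± 0.32), the proteoglycan Epyc (3.50), Kank4 (3.45), the chemokine Ccl9 (3.36), 6030408B16Rik (3.05), Fam180a (3.04), the homeobox gene Meox1 (3.03), Cspg5 (2.97), the protease Corin (2.84) and Nipal1 (2.82). DESeq2 did not call Fam180a and Corin.

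**Figure D3:**
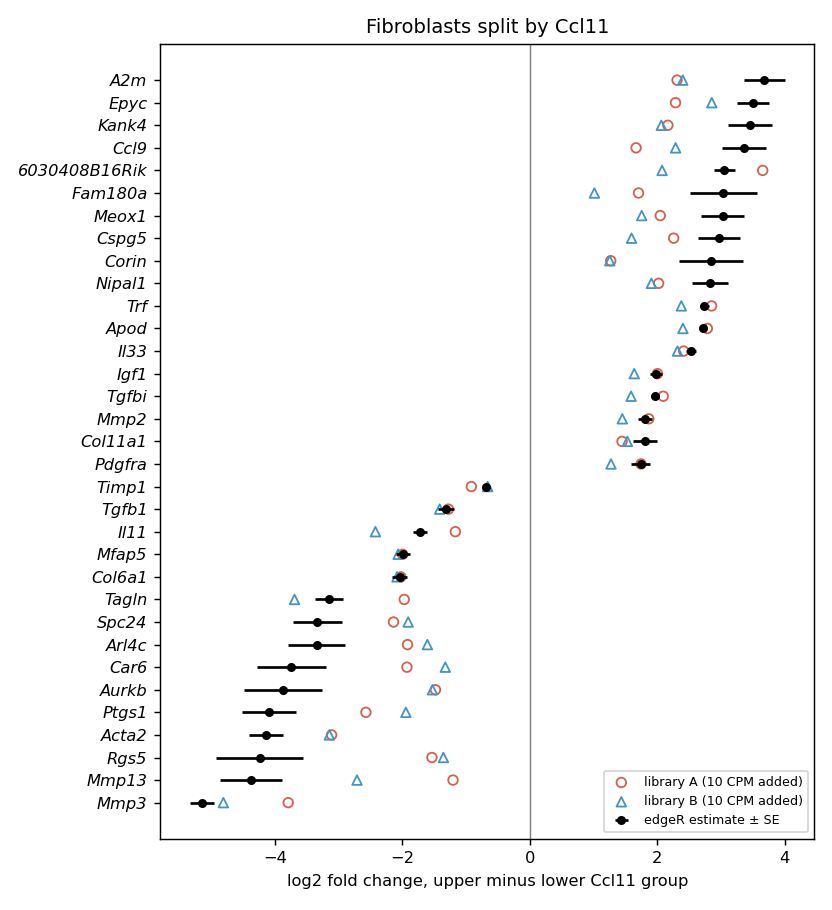
Log2 fold change of named genes between fibroblasts above the Ccl11 median of their library and the rest. Open symbols are library A and B (10 CPM added), and black points the edgeR estimate with the SE derived from its test. Apod, Trf and Il33 lie above 2 in both libraries and Mmp3 lies below −3 in both.

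The proteases Mmp3 and Mmp13 stood lower in the upper Ccl11 group. Mmp3 stood at 14.1 CPM in the upper and 324 in the lower group of A, and at 7.16 and 471 in B. It fell by 5.14 ± 0.19 on the log2 scale (edgeR adjusted p 6.28e-148, DESeq2 4.46e-10), and all 13 cells with at least 10 Mmp3 UMIs per 10,000 were in the lower group. Mmp13 stood at 2.82 against 19.6 CPM in A and 0.795 against 60.8 in B, a fall of 4.38 that rested on few UMIs and that DESeq2 did not call (adjusted p 0.0949). Mmp3 and Mmp13 are inducible proteases that lie in the same cluster on chromosome 9, at chr9:7445822-7455975 and chr9:7272514-7283331 (GRCm38), both on the plus strand, and Apod lies at chr16:31296192-31314808 on the minus strand. The 250 bases before the RefSeq start of the most contrasting of these genes are shown because the AP-1 motif TGANTCA, searched on both strands, is a known element of protease promoters. They come from RefSeq's table for GRCm38.p6 and run 5′ to 3′ on the gene's strand from chr9:7445572-7445821 for Mmp3, chr9:7272264-7272513 for Mmp13 and chr16:31314809-31315058 for Apod, with capitals marking the motif.
Mmp3: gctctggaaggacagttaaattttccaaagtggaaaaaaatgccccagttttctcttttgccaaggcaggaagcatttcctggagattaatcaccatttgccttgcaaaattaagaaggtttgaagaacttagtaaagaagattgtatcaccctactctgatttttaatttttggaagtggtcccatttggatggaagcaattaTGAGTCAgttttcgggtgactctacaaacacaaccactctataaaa
Mmp13: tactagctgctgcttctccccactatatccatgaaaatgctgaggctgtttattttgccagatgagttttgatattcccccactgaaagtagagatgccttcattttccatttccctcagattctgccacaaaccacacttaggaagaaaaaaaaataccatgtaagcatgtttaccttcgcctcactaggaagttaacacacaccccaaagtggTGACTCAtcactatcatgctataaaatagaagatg
Apod: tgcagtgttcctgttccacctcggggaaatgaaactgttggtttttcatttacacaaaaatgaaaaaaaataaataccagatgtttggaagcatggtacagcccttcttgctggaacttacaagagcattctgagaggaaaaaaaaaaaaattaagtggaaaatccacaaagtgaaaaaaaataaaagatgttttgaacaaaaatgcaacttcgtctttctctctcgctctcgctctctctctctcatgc
The match began 46 bases before the start of Mmp3 and 35 bases before that of Mmp13, and this window of Apod held none. The motif was present in 2217 of 32851 such windows (6.75%). The search was chosen after these values were seen and covered 9 genes, of which 6 had 8 entries: Igf1 and the second entry of Il11 also held a match, and the first entry of Il11 and both of Il33 held none. Ccl11, Trf and Mmp2 were named only. A match describes letters and not a bound site.

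Other matrix genes divided between the groups. Mmp2 rose by 1.81 and Tgfbi by 1.96, while Timp1 fell by 0.68, so that 6 of 15 proteases and inhibitors rose and 7 fell. Of 9 basement membrane genes tested 5 rose and none fell, among them Nid2 (1.49), Lama2 (1.07) and Nid1 (0.997), and DESeq2 called 4 of them. Col15a1 rose by 1.91, Col11a1 by 1.81 and Fbn2 by 2.51. Mfap5 fell by 2.00 (164 against 685 CPM in A and 98.6 against 445 in B), Col6a1 by 2.04, Col6a2 by 1.78 and Tnc, tenascin C, by 1.63. Col6a3, which forms filaments with those chains, had a change of −0.12 ± 0.09 (edgeR adjusted p 0.459) and Col1a1 of −0.05 ± 0.06 (0.714). Of 8 endoneurial markers 6 rose and 1, Wif1, fell, and the list's median of 1.56 stood beside 0.00 over all genes tested. DESeq2 called 4 of the 6. Spp1, 1 of the 6, changed by 0.04 without the cells of high glia, Acta2 or mitosis values (edgeR adjusted p 0.535). With a matrix sum of at least 50 it changed by −0.03. Osr2, Etv1, Cdkn2b, Abca8a and Abca9 still rose without those cells.

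Signals and receptors also separated. Il11 stood at 188 against 436 CPM in A and 91.4 against 535 in B, a fall of 1.72 ± 0.11 that DESeq2 did not call (adjusted p 0.128), with 5 upper and 17 lower cells at 10 UMIs per 10,000. Tgfb1 fell by 1.31, Cxcl12 by 1.27 and the IGF carrier Igfbp5 by 1.39, and of 14 growth factors 2 rose and 7 fell. DESeq2 called Tgfb1 and Igfbp5 but not Cxcl12. Ccl2 changed by −0.17 ± 0.12 (edgeR adjusted p 0.425). Without the cells of high glia, Acta2 or mitosis values, Ccl2 changed by −0.44 ± 0.13 (edgeR adjusted p 0.00975). Pdgfra rose by 1.74, whereas Pdgfrb had a change of −0.18 ± 0.13 (edgeR adjusted p 0.391). Of 8 cytokine receptors 4 rose and none fell, among them Osmr (0.58) and Il13ra1 (0.80), neither of which DESeq2 called. Without the same cells the changes of Osmr and Il13ra1 were 0.26 and 0.49 (edgeR adjusted p 0.521 and 0.0882).

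The lower group also held most of the Acta2 and mitosis-gene cells described next. All 9 cells with at least 10 Acta2 UMIs per 10,000 and 28 of the 36 cells with mitosis genes were in it, and 22 of the 32 with high glia markers. Acta2 fell by 4.14 in the upper group, Rgs5 by 4.24 and Tagln by 3.15, and 8 of 12 contractile genes fell, though DESeq2 called only 2 of the list and neither Rgs5 nor Tagln. All 12 mitosis genes, 14 of 14 other mitosis genes and 16 of 17 DNA replication genes fell, of which DESeq2 called 8, 3 and 1. The other genes that fell most were Ptgs1, cyclooxygenase 1 (4.10), the kinase Aurkb (3.87), Car6 (3.74), Arl4c (3.35) and the kinetochore gene Spc24 (3.33). Without the cells of high glia, Acta2 or mitosis values, 182 upper and 139 lower cells remained, and 575 genes rose and 443 fell, of which 538 and 374 were among the first calls. No mitosis gene could then be tested, 4 of 9 replication genes and 5 of 11 contractile genes fell, and Rgs5, Aurkb and Spc24 were no longer called.

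Cells with mitosis genes were counted by the sum of 12 genes, among them Top2a, Mki67 and Cdk1, with a limit of 10 UMIs per 10,000. By this rule 36 fibroblasts passed and are called the mitosis-gene class (dividing in the plot of lists), 21 in A (12.4%) and 15 in B (6.82%), a mean of 9.59% ± 3.91 (SD, n = 2). The limit cut a range: 7 cells lay between 5 and 10, 11 between 10 and 20, and the rest above 20. The share was no higher than in neuron-gene cells, which should not divide, with 10.5% in these, 11.6% in macrophage-gene cells and 38.4% in the remaining cells. After thinning to 2000 UMIs it was 9.42% in fibroblasts, 14.9% in neuron-gene cells and 40.5% in the remaining cells. In neuron-gene cells with a neuron sum of at least 100 it was 5.26% (23 of 437). The share was thus below that of all neuron-gene cells at equal depth, and above it at the higher limits given next. Those higher limits were counted without thinning. Whether these fibroblasts divide was not tested, nor was the part of free RNA or mixed droplets in the share. At a limit of 20, 25 fibroblasts (6.41%) and 28 of 816 neuron-gene cells (3.43%) passed, and at a limit of 50, 6 fibroblasts (1.54%) and 3 of 816 neuron-gene cells (0.368%) passed. Between 50 and 100 lay 15.2% of the remaining cells in A and 15.5% in B, against 1.76% and 0.909% of fibroblasts. For macrophage-gene cells this was 5.13% and 0%. Between 20 and 50 it was 7.69% and 10.6% of macrophage-gene cells, against 7.65% and 2.73% of fibroblasts. All 36 cells of the mitosis-gene class had a Dcn UMI, 8 had glia markers at 20 and none had Acta2 at 10. Their median depth was 17723 UMIs against 11180.5 in the other fibroblasts.

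Compared with the other fibroblasts by the same test over 8394 genes, 587 genes rose in the mitosis-gene class (6.99%) and 456 fell (5.43%), 12.4% in either direction, and DESeq2 called 225 and 80, all among the former. The 20 other mitosis genes and the 18 DNA replication genes all rose, with medians of 5.98 and 2.49 against −0.02 over all genes tested, and DESeq2 called 19 and 13. Since mitosis genes chose the cells, these genes describe them more than they test them. Hist1h1b, a linker histone made in S phase, stood at 642 against 5.24 CPM in A and 590 against 2.32 in B and rose by 7.23 ± 0.23. Bub1, of the spindle checkpoint, rose by 7.78, the spindle motor Kif11 by 7.08, Plk1 by 7.03 and Aspm by 7.52. With a floor of 3 UMIs over the group, Melk was at least 52.0-fold, Depdc1a 45.8-fold, Sapcd2 37.4-fold and Hist1h1a 33.3-fold higher, and DESeq2 did not call these 4.

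Of 12 cell cycle brakes 6 fell, 5 were not called and 1, Cdkn2c, rose by 3.13. Cdkn2a stood at 8.23 against 189 CPM in A and 35.2 against 225 in B and fell by 3.51 ± 0.32, and Cdkn2b by 2.43 ± 0.23. Apod, Igf1 and Trf, which rose in the upper Ccl11 group, fell. Apod stood at 1862 against 13791 CPM and 3864 against 15372 (a fall of 2.56 ± 0.15), Ccl11 at 87.8 against 592 and 215 against 684 (2.29 ± 0.20), Igf1 fell by 2.06, Trf by 1.94, Pdgfra by 1.97 and Mmp2 by 1.62. Col6a1 rose by 1.11, Mfap5 by 1.03 and Tnc by 0.95, the last not called by DESeq2 (adjusted p 0.29). The fibrillar collagens had little change, with Col1a1 at 0.08 ± 0.12 (edgeR adjusted p 0.725) and Col3a1 at 0.03 ± 0.10 (0.89). Of 15 proteases and inhibitors 2 rose and 6 fell, and of 9 basement membrane genes 3 fell and none rose.

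**Figure D4:**
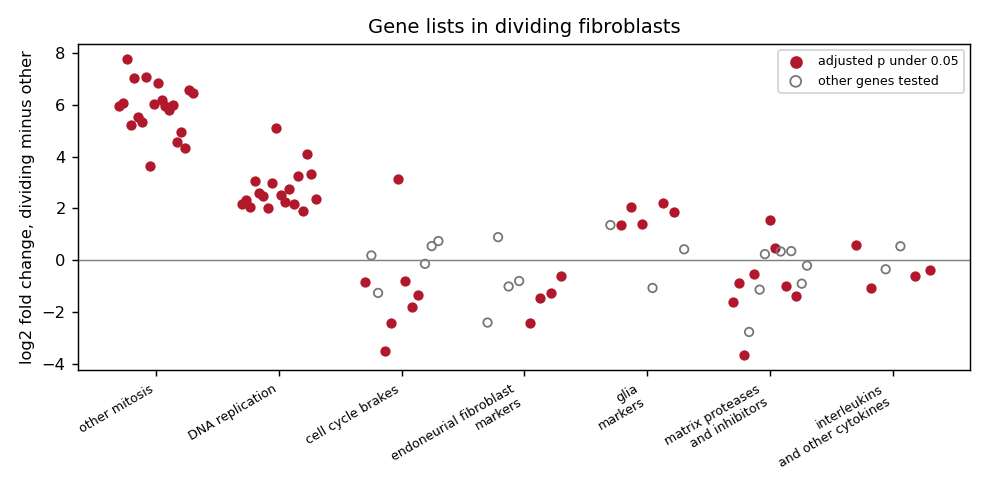
Log2 fold change of list members between the mitosis-gene class and the other fibroblasts, 1 point per gene, filled where the edgeR adjusted p lay under 0.05. The other mitosis and DNA replication genes all lie above 0, with medians of 5.98 and 2.49.

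Of 6 meningeal markers tested 3 fell and none rose. With a floor of 3 UMIs over the group, Ctxn3 was at least 7.91-fold, Fndc5 6.68-fold and Aldh1a2, which makes retinoic acid, 4.75-fold lower. The others named by the rule were Slc6a13, Itih2, the protease Mmp11 (a fall of 3.67), Rcsd1, Unc93b1 and AC130815.2, and DESeq2 called none of these 9. Glia markers moved with the class: 5 of 8 rose, with Fabp7, a fatty acid binding protein of glia, at 90.5 against 26.8 CPM in A and 211 against 81.3 in B, and none was at 0 in the sums. DESeq2 called 2 of them, and the part of glial RNA in the comparison was not tested. Without the cells of high glia markers or Acta2, 28 mitosis-gene cells were compared with 321, 609 genes rose and 511 fell, 516 and 397 of them among the first calls, and 1 of 5 glia markers tested rose.

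Acta2 was rare. With a limit of 10 UMIs per 10,000, 9 fibroblasts passed, 3 in A and 6 in B, a mean of 2.25% ± 0.681 (SD, n = 2), against 3 of 9438 remaining cells, 0 of 816 neuron-gene cells and 0 of 86 macrophage-gene cells, which allows up to 0.368% and 3.49% by a count of 3. Near the limit, 5 cells lay between 5 and 10 and 5 between 10 and 20. The 9 cells held 38158 UMIs of the genes tested in A and 26073 in B. They had few of the genes that chose the class. All 9 had Mgp, but 5 had no Dcn, 8 no Lum and none had Pdgfra, which 235 of the other 381 had. They fell into 4 cells with Rgs5, a pericyte regulator of G protein signalling, and no Dcn, 4 with Dcn and no Rgs5, and 1 with neither. Of the Acta2-negative fibroblasts 5 of 381 had Rgs5. Spp1 was found in 7 of the 9 and Tpm2 in all.

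**Figure D5:**
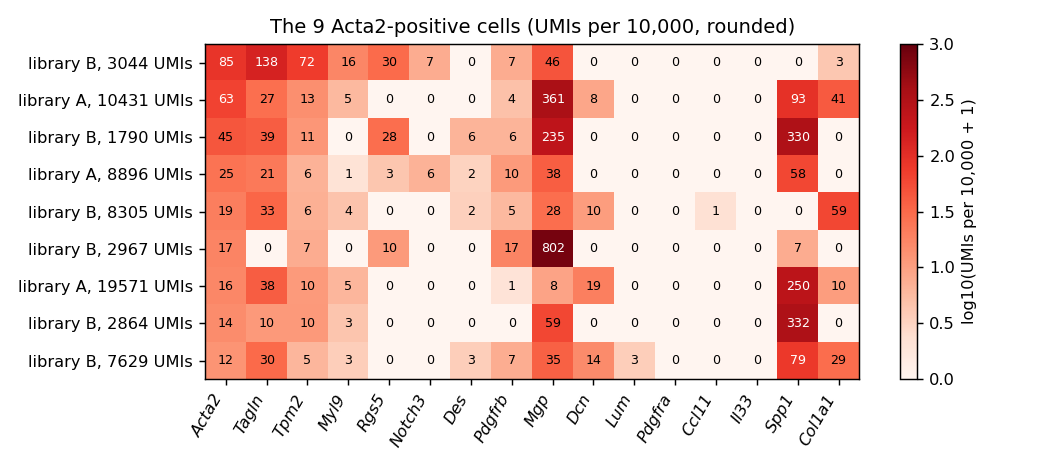
Level of muscle, pericyte and fibroblast genes in the 9 Acta2-positive cells, 1 row per cell with its library and total UMIs, in UMIs per 10,000 (colour on a log10 scale, numbers rounded). Acta2 runs from 11.8 to 85.4, Pdgfra is 0 in each cell, and Dcn is above 0 in 4 cells, none of which has Rgs5.

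Against the other fibroblasts, 27 of 8088 genes rose (0.334%) and 101 fell (1.25%), 1.58% in either direction, and DESeq2 called 15 and 7, all among the former. Muscle genes rose. Tagln, the actin-binding protein transgelin, stood at 3136 against 34.2 CPM in A and 3835 against 36.5 in B and rose by 6.10 ± 0.31. Myl9, a myosin light chain, rose by 3.31 ± 0.53, Tpm2, a tropomyosin, by 2.71 ± 0.30, and Tpm1, Cald1 and Vcl by 1.49, 1.13 and 1.46, so that 7 of 11 contractile genes rose and none fell, with a median of 1.46 against −0.45 over all genes tested, and DESeq2 called 4. Of 6 pericyte and smooth muscle markers 2 rose, Rgs5 by 5.30 ± 0.82 and Des, desmin, by 4.14 ± 1.10. Rgs5 rested more on B (639 against 0.420 CPM) than on A (77.1 against 11.7). The other genes that rose most were Higd1b (6.27), Adap2 (4.94), Adcy9 (4.74), Esam (4.31), the phosphatase Ptp4a3 (4.31 ± 0.33), Filip1l (4.05) and Pgf (3.86). DESeq2 did not call Esam and Pgf. In the Acta2 cells of A and B, Higd1b had 3 and 8 UMIs, Adap2 3 and 3, and Adcy9 1 and 6. Esam had 4 and 1, Filip1l 6 and 9 and Pgf 1 and 6, against 39 and 32 for Ptp4a3. Apart from Ptp4a3, the sizes of these rises thus rest on few UMIs, with SEs from 0.84 (Filip1l) to 1.22 (Esam).

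Apod, Trf and Il33, which rose in the upper Ccl11 group, fell in the Acta2 cells. With a floor of 3 UMIs over the group, Trf was at least 30.5-fold lower, Il33 16.3-fold, Cst6 14.7-fold, Il11 6.79-fold, Mmp3 4.43-fold, Itm2a 4.27-fold, Cdkn2a 4.05-fold, Rida 4.03-fold, Pdgfra 3.06-fold and Lpl 2.96-fold. DESeq2 called only Il11 of these 10. The floor counts UMIs as if spread evenly over cells. Among all fibroblasts of A and B, Il11 was found in 41 and 48 cells and Mmp3 in 30 and 30. A lack of UMIs in so few Acta2 cells therefore does not settle a fall of Il11 or Mmp3. Apod had 0 UMIs in A and 1 in B, and DESeq2 called its fall (adjusted p 1.07e-07). Igfbp7 rose by 1.74 (6684 against 1967 CPM in A and 11203 against 1677 in B). Several matrix genes did not pass the test, with Col1a1 at 0.41 ± 0.28 (edgeR adjusted p 0.801), Col4a1 at 0.38 ± 0.28 (0.801) and Fn1 at −0.36 ± 0.31 (0.801), and Pdgfrb (0.95 ± 0.36, 0.21) and Notch3 (2.81 ± 1.09, 0.23) did not either. Endoneurial markers fell in 3 of 8. With a limit of 20 for Acta2 only 4 cells remained, 5 genes rose and 6 fell. Myofibroblasts and pericytes that carry Mgp cannot be told apart by Acta2 and Tagln alone.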

How the data were processed

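Single cells of 2 libraries (A and B) were measured with 10x Genomics Chromium chemistry. The deposited matrices hold raw UMI counts per gene and barcode, which the authors made with Cell Ranger 3.0.2 on mm10, per the study's methods and the submitters' processing notes, and which were analysed by the authors with Seurat 3. A file header names another Cell Ranger release. The files held 5175 barcodes and 40355401 UMIs (A) and 5773 and 38945848 (B) over 31053 genes.

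Cells were chosen as the report states, in Python 3.11.15 with numpy 2.4.6, pandas 2.3.3 and scipy 1.17.1, and drawn with matplotlib 3.10.9. Counts were summed per library and class, low genes were removed with filterByExpr, and edgeR 4.0.16 in R 4.3.3 fitted TMM-normalized sums with the library as a block (glmQLFTest, Benjamini-Hochberg, threshold 0.05). Both classes of a comparison come from the same library, so the library pairs them by construction. DESeq2 1.42.0 was an alternative, as were the limits of each class, thinning to 2000 UMIs, the mitochondrial limit, no filter and no block. The scripts were tested on simulated data. The 34 gene lists, the members and the limits were chosen with earlier results of these data known. Named genes are list members, the 20 with the largest fold over other cells, and for each test up to 10 in each direction with the largest change at 20 CPM or more. A few members of these lists are not reported here by name, though the counts include them. No column of another series was used.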

Additional observations from a re-analysis of the deposited data

How the results depend on the processing

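Counts of genes depended on the tool and on depth more than directions did. DESeq2 called 15 higher and 7 lower genes for Acta2, 225 and 80 for the mitosis-gene class and 114 and 89 for Ccl11. Thinning to 2000 UMIs left 12 and 89 for Acta2, 77 and 90 for the mitosis-gene class and 193 and 133 for Ccl11. After thinning 2771, 2864 and 3047 genes were tested. Of the 89 lower Acta2 genes, 37 were among the 101 first calls. Thinning removes reads and so power. A limit of 20 for Acta2 gave 5 and 6 genes and 1.04% of fibroblasts. A limit of 5 gave 47 and 133 genes, 75 of the lower ones among the first calls, and 3.58%. A matrix sum of at least 50 gave 8 and 116 genes, 57 of the lower ones among the first calls, and a fibroblast share of 3.00%. For the mitosis-gene class a limit of 5 gave 692 lower genes and no filter on low counts 773 lower. Without the doubtful cells Ccl11 gave 443 lower genes and the fibroblast share was 3.24%. A mitochondrial limit of 5% gave a share of 17.0%, since it removes more of the remaining cells, whose median was 6.04%. With 50 CPM added, 196 genes were higher and 354 lower in fibroblasts, and the fold of Ccl11 went from 55.0 to 12.2.

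Without the replicate block the counts were 71 and 286 for Acta2, 767 and 663 for the mitosis-gene class and 708 and 586 for Ccl11. Leaving out A or B left no test: of the calls, 27 and 101 kept their direction in either library for Acta2, 587 and 456 for the mitosis-gene class, and 791 to 794 higher and 669 to 670 lower for Ccl11. Over A and B alone the shares ran from 3.36% to 3.88% (fibroblasts), 1.76% to 2.73% (Acta2) and 6.82% to 12.4% (mitosis-gene), and 576 to 601 genes were higher and 1417 to 1527 lower.

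Signs turned for few genes. In the mitosis-gene class, the log2 change of Fabp7 was −0.28 without the 10% of cells with most glia markers, and those of Col4a1 and Mmp14 were 0.0058 and 0.0331 after thinning. For Ccl11, a matrix sum of at least 50 gave Postn 0.0739 and Spp1 −0.0297, and thinning gave Fos −0.34, Tgfbr3 −0.53 and Twist1 0.0843. In single libraries Ebf1 ran from −0.00856 to 0.518 and Sparc from −0.0693 to 0.130. The cause was not tested. Depth limits the Acta2 cells most, where 3 UMIs over the 9 cells stand for 45.8 CPM.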
